A study of Mus musculus with 18 samples.

Results

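The response of gene expression to C-type natriuretic peptide (CNP) was compared between the mineralized and the hypertrophic zone of cultured mouse tibiae. For each probe set the change with CNP in the hypertrophic zone was subtracted from the change in the mineralized zone, so a positive response difference means that CNP left the gene relatively higher in the mineralized zone. The comparison used 12 of the 18 Affymetrix MOE430_2 arrays of the study, 3 in each of 4 groups, and 27022 of 45101 probe sets were bright enough to be tested. Tibiae came from CD1 embryos of both sexes at stage E15.5, with no genetic change named in the labels. They were kept for 6 days as whole bones in minimal medium, received CNP (1e-06 M) or vehicle (BSA/HCl, given as 1 mM) on days 1, 3 and 5, and were dissected on day 6. About 24 bones per treatment were pooled zone by zone before RNA was extracted. The vehicle hypertrophic, CNP hypertrophic, vehicle mineralized and CNP mineralized groups therefore each hold cultures 2, 3 and 4, and both zones of a culture come from the same bones. The series design calls the cultures independent trials and gives no further detail. P-values of the response difference rest on how zone differences vary between cultures of a treatment. Those of the response in 1 zone rest on how signals vary between cultures of a group. Each spread was estimated over all 18 arrays, which include the resting/proliferating zone. Signals are those of pooled tissue pieces, in which fewer cells of a type and less RNA per cell cannot be told apart.

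CNP is a paracrine peptide of the growth plate that binds the receptor encoded by Npr2, which makes cyclic GMP and stimulates endochondral bone growth. The receptor encoded by Npr3 removes natriuretic peptides from the surroundings of the cell. In the hypertrophic zone chondrocytes have left the cell cycle, enlarge and secrete type X collagen, and in the mineralized zone their matrix is calcified, eroded by osteoclasts and replaced by bone.

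The promoter sequences of 3 of the 4 genes that CNP raised in the hypertrophic zone and whose response differed between the zones are shown, since these genes moved together and RefSeq's table (GRCm38.p6) holds their start sites. Each line gives the 100 bases before the annotated start, 5′ to 3′ on the strand of the gene, and capitals mark TGACG, the core letters of the cyclic AMP response element. Npr3 lies at chr15:11907372-11907471 on the minus strand, Gng4 (the second of its listed starts) at chr13:13784207-13784306 on the plus strand, and Scube3 at chr17:28142209-28142308 on the plus strand.
Npr3: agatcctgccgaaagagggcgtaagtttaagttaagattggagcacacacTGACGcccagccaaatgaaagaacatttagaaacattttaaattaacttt
Gng4: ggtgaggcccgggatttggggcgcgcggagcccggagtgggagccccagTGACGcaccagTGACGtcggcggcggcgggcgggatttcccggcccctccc
Scube3: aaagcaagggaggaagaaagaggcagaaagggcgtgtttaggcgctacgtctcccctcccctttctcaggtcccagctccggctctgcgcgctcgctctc

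Of the 11 genes named by the rule below, 5 had an entry, with 9 start sites in all. Over the 250 bases before the start and on both strands, TGACG was found at 2 of the 9, against 17.77% of all 32851 promoters of that length. It began 50 bases before the start of Npr3, and 51 and 40 bases before the second start of Gng4. TGANTCA, the AP-1 site, was found at 0 of the 9 and in 6.749% of all promoters. These matches describe letters in a window and were not tested.

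Most defining genes separated the zones. Col10a1, which encodes type X collagen, had a mean normalized signal of 7568 ± 708 (SD, n = 3) in vehicle hypertrophic and 567 ± 187 in vehicle mineralized pieces. Acp5, the acid phosphatase of osteoclasts, showed the opposite order, with 1144 ± 66.3 and 7555 ± 863. Ibsp, which encodes bone sialoprotein, had means of 6528 and 7164 and so did not separate the pieces well. Whether the Ibsp signal of the hypertrophic pieces came from bone was not tested. Vehicle hypertrophic and vehicle mineralized arrays overlapped for Mmp13, at 7065 to 7235 against 6116 to 7378. They also overlapped for Col1a1, at 3509 to 6908 against 3223 to 11527.5. Over the 12 arrays the median deposited signal ran from 39.3 to 174.2, and the array of the CNP hypertrophic piece of culture 2 was the dimmest. That array also had a ratio of 3′ to 5′ actin signal of 3.93, a sign of RNA quality, against 2.20 to 2.53 in the other hypertrophic arrays and 1.59 to 1.87 in the mineralized ones. The part of RNA quality in the results below was not tested across genes. The response difference of the log2 actin ratio itself was -0.29, with an exact permutation p of 0.3 (two-sided, 3 against 3 cultures, which cannot go below 0.1). Without culture number 2 it was -0.00043.

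CNP changed the hypertrophic zone and, beyond 1 probe set, no change in the mineralized zone passed the test. In the hypertrophic zone 438 of 27022 probe sets passed the limma test at an adjusted p under 0.05 (1.62%), with 141 higher and 297 lower. Median centring gave 128 higher and 172 lower, and the unscaled signal 9 higher and 85 lower. The count was 193, 179 and 220 without the vehicle arrays of cultures 2 and 4 and the CNP array of culture 3 of that zone, in this order. In the mineralized zone 1 did (0.0037%), and 907 had an unadjusted p under 0.05, where 1351 would be given by chance. Leaving out single arrays or culture numbers gave 0 to 4 calls in the mineralized zone. The fit pools the spread of all groups, so its standard errors are equal in both zones. Taken group by group, the median SD of log2 signals over 3 arrays was 0.21 with vehicle and 0.25 with CNP in the hypertrophic zone, and 0.19 with either in the mineralized zone. The SD of the log2 response over all tested probe sets was 0.35 in the hypertrophic and 0.24 in the mineralized zone.

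The test of the response difference itself passed for 18 probe sets, or 0.0666% of those tested. Of these, 12 were higher (0.0444%) and 6 lower (0.0222%) in the mineralized zone, and 2018 had an unadjusted p under 0.05 (7.47%). After median centring of the arrays in place of quantile normalization 8 were higher and 7 lower, and on the unscaled signal 5 and 6. The count depended on single arrays. Without the vehicle hypertrophic array of culture 2 no probe set passed in limma (1494 at an unadjusted p under 0.05), and 2 passed without the vehicle mineralized array of that culture. The log files of both of these arrays hold an aborted entry. Leaving out the CNP hypertrophic array of culture 4 gave 54, and leaving out the dim CNP hypertrophic array of culture 2 gave 8. It was 9 without the vehicle hypertrophic array of culture 4, 8 without its mineralized array, and 9 without either the CNP mineralized array of culture 4 or the vehicle mineralized array of culture 3. With 2 cultures per treatment, whichever culture number was left out, 0 passed, with 1680 to 1804 at an unadjusted p under 0.05.

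Of the 18, 17 shared 1 pattern. The hypertrophic response was called by itself for 17 of them and the mineralized response for 0. For the same 17 the mineralized change was the smaller in size, against 62.9% of all tested probe sets. Calls of the difference and of the hypertrophic response favour this count. The zone differences of CNP and vehicle cultures did not overlap for any of the 18, which is a description, since the test selected them on these values. The share without overlap over all tested probe sets was not counted. The probe set outside this pattern carries no gene symbol here. Its response was 1.60 in the mineralized and -1.40 in the hypertrophic zone, neither of them called, with a difference of 3.00 ± 0.46 (limma adjusted p = 0.0195).

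**Figure D1:**
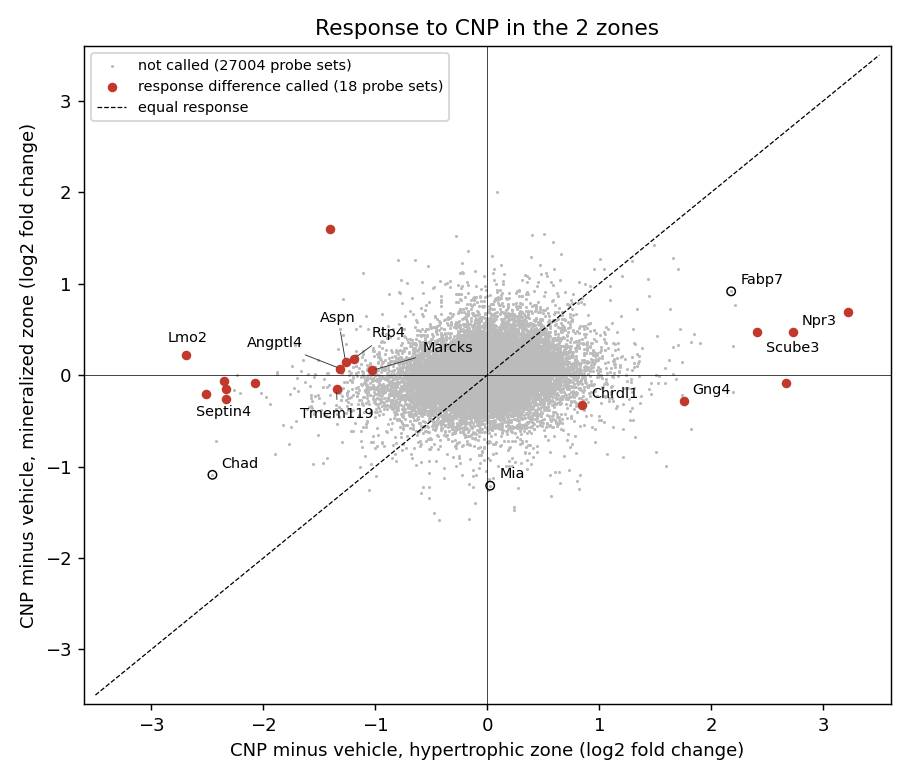
Log2 response to CNP (CNP minus vehicle) of 27022 probe sets in the hypertrophic zone (x axis) and the mineralized zone (y axis), with the 18 probe sets whose response difference passed the test as filled red points and 3 other genes of the text as open circles. Of the called probe sets, 17 lie farther from 0 on the x axis than on the y axis, as do 62.9% of all tested. Chad and Fabp7 lie on the same side of 0 in both zones, and Mia changed in the mineralized zone.

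The 18 probe sets held 13 genes by their single symbol, and 11 of them were called on their brightest probe set, which represents the gene. Of these 11, 7 were higher and 4 lower in the mineralized zone. The genes were selected on these arrays, so their separation is a description. How many of all tested probe sets separate in the same way was not counted. In the hypertrophic zone vehicle and CNP arrays did not overlap for any of the 11, and in the mineralized zone they overlapped for all but 2, Tmem119 and Scube3. For 10 of the 11 the CNP hypertrophic arrays lay beyond all 9 other arrays, Rtp4 being the exception.

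Npr3, the clearance receptor, was the only gene of the CNP pathway list that passed. In the vehicle hypertrophic pieces of cultures 2, 3 and 4 its normalized signal was 225, 324 and 336, with CNP 1629, 2130 and 2354. In the mineralized zone it was 110, 97.8 and 83.0 with vehicle and 159, 164 and 104 with CNP. All CNP hypertrophic arrays were above every other array, and the mineralized groups overlapped. Npr3 rose 6.62-fold in the hypertrophic zone (limma adjusted p = 3.45e-06), while its log2 change in the mineralized zone was 0.47, with a 95% interval of 0.026 to 0.92 before adjustment. The difference was -2.26 ± 0.32 (SE of the fit, limma adjusted p = 0.0139). A dimmer probe set of Npr3 differed by -1.35 and did not pass.

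Scube3 encodes a secreted glycoprotein with EGF-like and CUB domains. Its signal was 158, 157 and 234 in vehicle and 723, 1226 and 1208 in CNP hypertrophic pieces, and 62.0, 91.5 and 93.5 against 136, 106 and 116 in mineralized pieces. The groups were apart in both zones, in the same direction. The log2 response was 2.41 in the hypertrophic and 0.47 in the mineralized zone (interval -0.0019 to 0.94), and the difference was -1.94 ± 0.30 (limma adjusted p = 0.0195).

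Gng4 encodes a gamma subunit of heterotrimeric G proteins. In the hypertrophic zone its signal was 135, 113 and 87.7 with vehicle and 511, 313 and 431 with CNP. In the mineralized zone it was 156, 155 and 165 with vehicle and 109, 157 and 119 with CNP. With vehicle Gng4 was higher in the mineralized piece of every culture, and with CNP it was lower in every culture. The difference was -2.04 ± 0.31 (limma adjusted p = 0.0195). The other probe set of Gng4 did not show it, with a difference of 0.22 and responses of 0.69 and 0.91 in the hypertrophic and mineralized zones.

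Chrdl1 encodes chordin-like 1, a secreted BMP antagonist. Hypertrophic signals were 969, 1034 and 894 with vehicle and 1998, 1721 and 1554 with CNP, and mineralized signals were 512, 699 and 500 against 501, 425 and 412. Chrdl1 rose 1.80-fold in the hypertrophic zone and its log2 change in the mineralized zone was -0.33. The response difference was -1.18 ± 0.20 (limma adjusted p = 0.0382), and the zone difference in CNP cultures varied little, at -1.94 ± 0.055 (SD, n = 3). The other probe sets of Chrdl1 differed by -0.65 and -1.38, neither of them called.

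Lmo2 had the largest positive difference of the 11. It encodes a LIM-domain partner of transcription factors known from blood and endothelial development. Its signal was 338, 280 and 259 in vehicle hypertrophic pieces and fell to 75.3, 21.9 and 14.9 with CNP. In mineralized pieces it was 544, 533 and 416 with vehicle and 674, 494 and 586 with CNP, and these groups overlapped. The CNP hypertrophic signals of cultures 3 and 4 were close to the added constant of 16, so the fall of 6.46-fold is understated on this scale. The difference was 2.92 ± 0.38 (limma adjusted p = 0.00956). Summed signals of the endothelial marker list, of which 7 of 12 members were tested, were 882 to 987 in vehicle and 842 to 985 in CNP hypertrophic pieces. They were 5428 to 6445 over both mineralized groups, and Pecam1 and Cdh5 had mean signals of 17.5 and 66.0 in vehicle hypertrophic pieces.

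Septin4, which encodes a GTP-binding protein of the septin cytoskeleton, fell 5.69-fold in the hypertrophic zone. Its signal went from 2092, 3266 and 3009 to 292, 621 and 562 there, and in the mineralized zone it was 1442, 2423 and 1700 with vehicle and 1232, 1833 and 1705 with CNP. The difference was 2.30 ± 0.30 (limma adjusted p = 0.00956). A second probe set of Septin4 was called as well, with a difference of 1.99.

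Marcks encodes a membrane and actin-binding substrate of protein kinase C. Its hypertrophic signal was 4597, 3903 and 4398 with vehicle and 2186, 1880 and 2230 with CNP. Its mineralized signal was 5529, 6348 and 5937 with vehicle and 6391, 5794 and 6263 with CNP. The precision was the best of the 11, with a difference of 1.08 ± 0.14 (limma adjusted p = 0.00956) and a mineralized interval of -0.15 to 0.26. The other tested probe sets of Marcks differed by 0.26 to 1.28, all in the same direction and none called.

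Tmem119 encodes a membrane protein known to promote osteoblast differentiation. Hypertrophic signals were 4892, 3453 and 4688 with vehicle and 1929, 1358 and 1806 with CNP, and mineralized signals were 5590, 5236 and 5590 against 5142, 5184 and 4485. Both zones had lower signals with CNP and no overlap, by 1.35 and by 0.15 on the log2 scale. The difference was 1.20 ± 0.17 (limma adjusted p = 0.0169).

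Aspn encodes asporin, a small leucine-rich proteoglycan of connective tissue matrix. Its hypertrophic signal was 1439, 1175 and 1070 with vehicle and 659, 286 and 647 with CNP, while its mineralized signal was 2214, 1526 and 1552 against 2356, 1561 and 1940. The mineralized groups overlapped. Aspn differed by 1.41 ± 0.22 (limma adjusted p = 0.0195), and its other probe set by 1.15, not called.

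Angptl4, a secreted inhibitor of lipoprotein lipase, had hypertrophic signals of 1885, 2331 and 2494 with vehicle and 824, 891 and 945 with CNP. In the mineralized zone they were 1462, 2184 and 1917 with vehicle and 1696, 1928 and 2171 with CNP. Its difference of 1.38 ± 0.24 was the closest of the 11 to the threshold (limma adjusted p = 0.0484).

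Rtp4, an interferon-induced chaperone of G protein-coupled receptors, had hypertrophic signals of 375, 469 and 345 with vehicle and 202, 144 and 148 with CNP. Its mineralized signals were 190, 224 and 147 with vehicle and 230, 220 and 187 with CNP. With CNP the hypertrophic signals of Rtp4 lay close to those of the mineralized zone. The difference was 1.37 ± 0.23 (limma adjusted p = 0.0382).

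**Figure D2:**
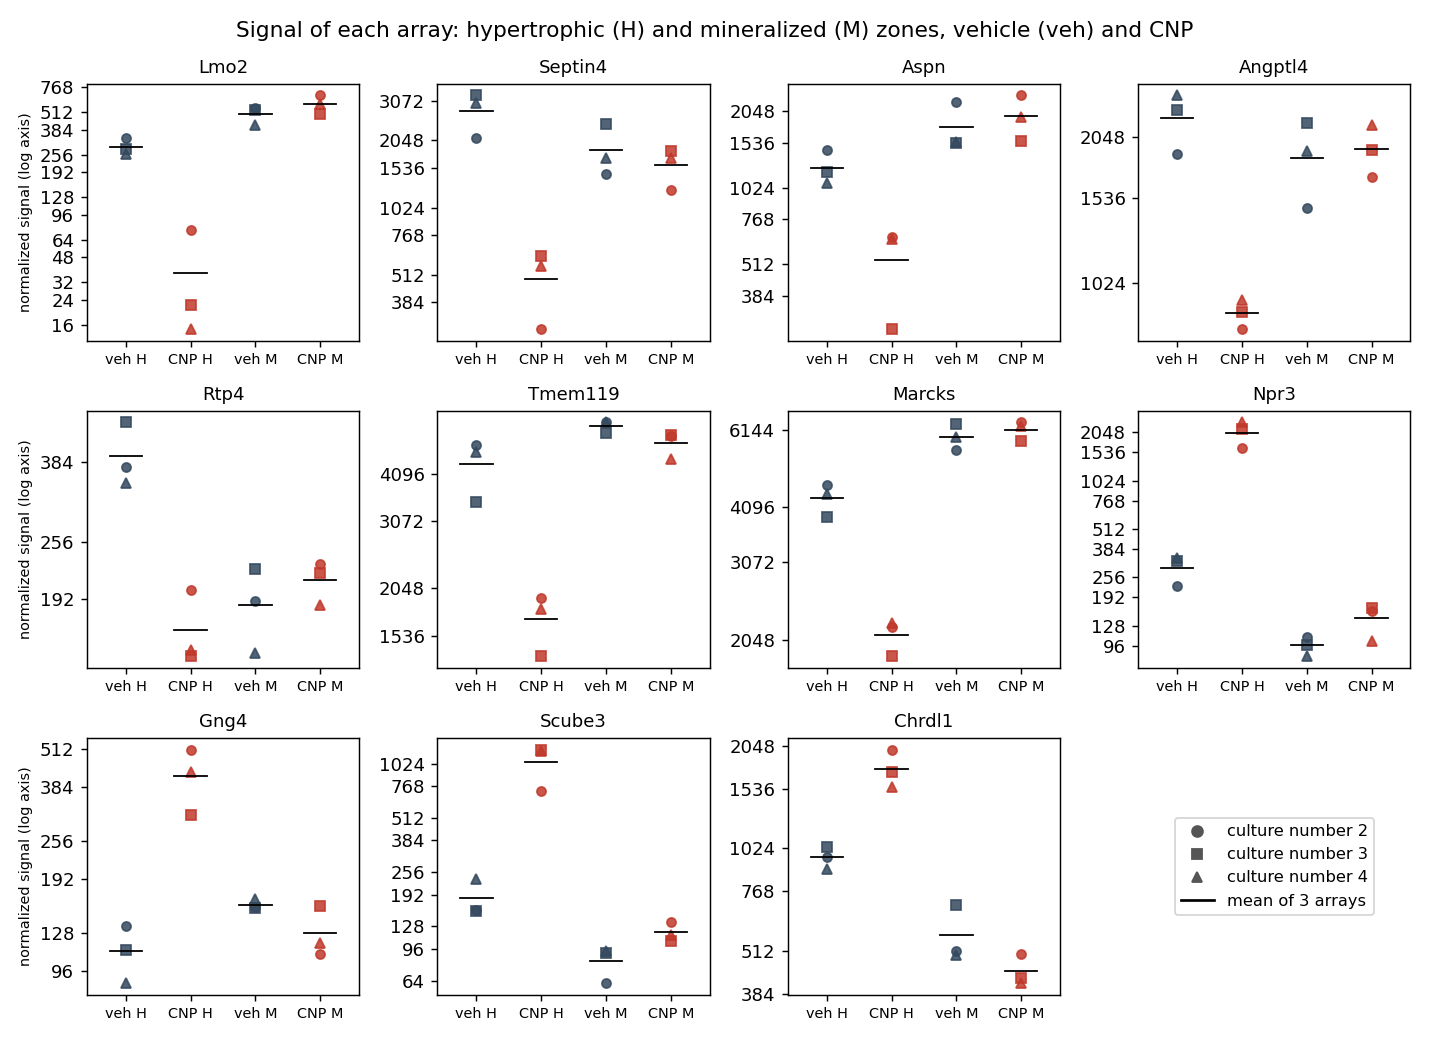
Normalized signal (log axis, 1 scale per gene) of the 11 genes in each of the 12 arrays, by zone and treatment, with the culture number as the symbol and the mean of 3 arrays as a bar. The CNP hypertrophic arrays lie apart from the vehicle hypertrophic arrays for every gene shown, and beyond all other arrays for 10 of the 11. The genes were selected on these arrays, and the share of all probe sets that separate so was not counted.

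The zone order within cultures differed between vehicle and CNP cultures for 4 genes, and for 7 the zone gap was wider in CNP cultures. Septin4, Angptl4 and Rtp4 were lower in the mineralized than in the hypertrophic piece of every vehicle culture and higher in every CNP culture. The log2 zone difference of Septin4 was -0.53, -0.43 and -0.82 in vehicle cultures 2, 3 and 4 and 2.02, 1.54 and 1.57 in CNP cultures. Gng4 went the other way, from 0.18, 0.41 and 0.81 to -2.07, -0.93 and -1.73. For Lmo2, Aspn, Tmem119 and Marcks the mineralized piece was the higher with either treatment, and for Npr3, Scube3 and Chrdl1 the lower. For Lmo2 the mineralized piece was 1.66-fold above the hypertrophic piece with vehicle and 12.6-fold with CNP. Npr3 had log2 zone differences of -0.94, -1.58 and -1.83 with vehicle and -3.23, -3.57 and -4.31 with CNP. In each of these 7 genes the smallest gap of the CNP cultures exceeded the largest of the vehicle cultures. The test selected the genes on these zone differences, so their separation is a description.

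**Figure D3:**
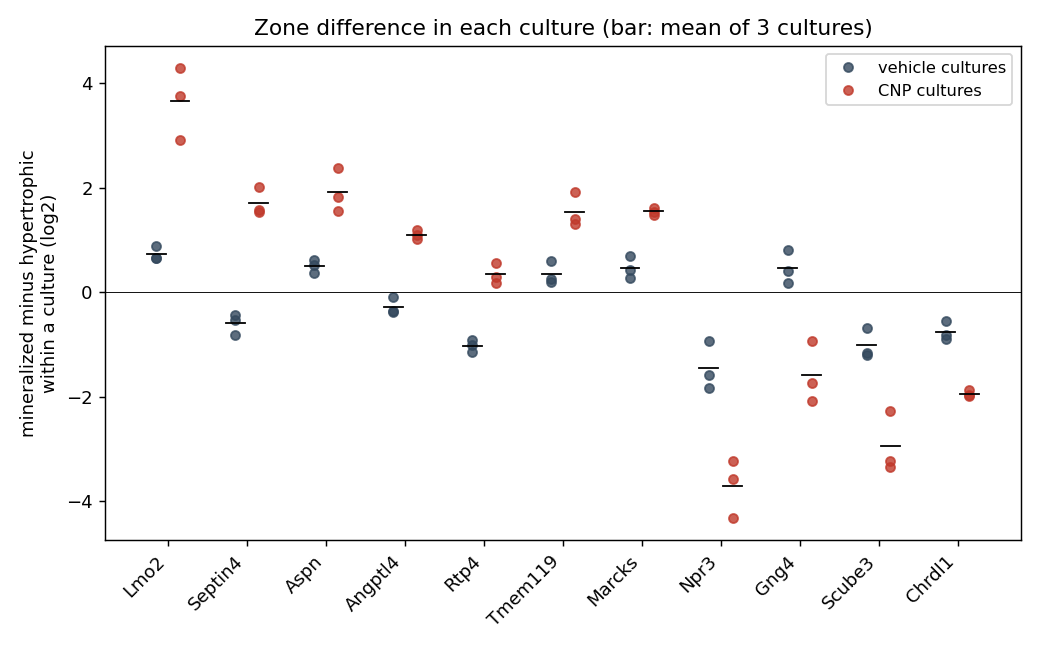
Mineralized minus hypertrophic log2 signal within each of the 3 vehicle and 3 CNP cultures for the 11 genes, with the mean of 3 cultures as a bar. The treatments do not overlap for any gene shown, and the zone difference changes sign for Septin4, Angptl4, Rtp4 and Gng4. The genes were selected on these values.

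A pair of genes was called on a probe set that is not their brightest, and these were chosen after their values were seen. Cxcl14, which encodes a chemokine, differed by -2.53 on the called probe set (limma adjusted p = 0.0382), with responses of 3.22 in the hypertrophic and 0.69 in the mineralized zone. That probe set was dim outside the CNP hypertrophic arrays, with signals of 26.2 to 53.8 in vehicle hypertrophic, 1.79 to 2.91 in vehicle mineralized and 6.46 to 34.8 in CNP mineralized pieces. These lie under the dim threshold of 63.5, so the sizes depend on the added constant. The brightest probe set of Cxcl14 differed by 0.011. Ankrd6, which encodes the WNT pathway protein diversin, differed by 2.18 (limma adjusted p = 0.0195) on the called and by 0.16 on the brightest probe set. The probe sets of these genes disagree, so their calls hold for 1 probe set only. Of the other called probe sets, 1 carries the symbols of both Trf and Srprb and 3 carry none.

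The 438 probe sets called in the hypertrophic zone were followed into the mineralized zone. Their median absolute log2 response was 1.00 in the hypertrophic zone, where they were selected, and 0.16 in the mineralized zone, against 0.13 over all tested probe sets. The mineralized response had the same sign for 317 of them (72.4%), against 57.8% of all tested. At an unadjusted p under 0.05 in the mineralized zone were 39, of which 35 had the same sign. Of all 27022 tested, 907 were under it, 609 of them with the same sign. The smaller response was the mineralized one for 437 of the 438 (99.8%), against 62.9% of all tested. The selection in the hypertrophic zone favours this count. The cultures of both zones are the same, so these shares describe the tables and were not tested.

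Several genes with large hypertrophic responses, chosen after their values were seen, had sizeable values in the same direction in the mineralized zone. Chad, which encodes the cartilage matrix protein chondroadherin, fell by 2.46 in the hypertrophic zone on the log2 scale, and its change in the mineralized zone was -1.09 (interval -1.67 to -0.51). Fabp7, a fatty acid-binding protein, had responses of 2.18 and 0.92. Gdf5, a growth factor of joint formation, had 2.21 and 0.77, and Csn3, kappa-casein, 1.70 and 1.16. None of the mineralized values passed the limma test. The response difference of Csn3 was -0.55 with an interval of -1.51 to 0.42, which spans changes of over 2-fold.

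Mia, named after its values were seen, was the gene called in the mineralized zone. It encodes a small protein secreted by chondrocytes. Its mineralized signal was 866, 1284 and 1143 with vehicle and 321, 618 and 487 with CNP, against 5850, 6562 and 5979 and 6822, 6116 and 5800 in the hypertrophic zone. The mineralized groups did not overlap and the hypertrophic groups did. It fell by 1.21 on the log2 scale in the mineralized zone (limma adjusted p = 0.0331). The response difference of -1.24 ± 0.24 missed the threshold (limma adjusted p = 0.0873), so the zones were not shown to differ. The mineralized call of Mia was lost in 12 of 21 distinct other settings. These include median centring, no scaling, fluidics run as a block, day 2 alone and leaving out the vehicle mineralized array of culture 3. The mineralized calls made in the last 3 of these were other probe sets.

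A further 11 genes, besides Mia, had an adjusted p between 0.05 and 0.1 for the response difference, and were chosen for that. Wif1, a secreted WNT inhibitor, was nearest, with a difference of 1.32 ± 0.23 (limma adjusted p = 0.0538). Its hypertrophic signal was 2857, 2380 and 2735 with vehicle and 709, 1297 and 1317 with CNP, and its mineralized signal was 3919, 4585 and 4455 against 4244, 4351 and 4538. Svep1, an extracellular matrix adhesion protein, differed by 2.23 and Itgbl1, an integrin beta-like protein, by 1.37. Positive differences were also found for Pltp, the phospholipid transfer protein (1.13), Col3a1, type III collagen (0.79), Cyfip2, an actin regulator (1.34), Enpp6, a choline phosphodiesterase (1.21), Sesn1, a stress-induced sestrin (0.79), and A930033H14Rik (1.35). Differences were negative for Grem1, a BMP antagonist (-1.51), and Hvcn1, a proton channel (-2.41). None of these 11 differences is a call.

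Among genes of the CNP pathway, the response of the receptor Npr2 did not pass the test of a difference. Its signal was 1211, 843 and 1007 with vehicle and 506, 515 and 557 with CNP in the hypertrophic zone, and 986, 920 and 1037 against 800, 837 and 818 in the mineralized zone. The groups did not overlap in either zone. Npr2 fell by 0.92 on the log2 scale in the hypertrophic zone (limma adjusted p = 0.00374), and its mineralized change was -0.26 (interval -0.58 to 0.064). The difference was 0.66 ± 0.21 (limma adjusted p = 0.356, interval 0.23 to 1.11 before adjustment). Prkg2, the cyclic GMP-dependent kinase of chondrocytes, differed by -0.29 (interval -0.88 to 0.30). Of the 12 tested genes of CNP receptors and cyclic GMP signalling, 1 was called lower and 0 higher, and the median difference was -0.0055, against 0.014 over 13247 genes.

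For the genes that define chondrocyte hypertrophy no response difference passed. The hedgehog ligand gene Ihh, a marker of prehypertrophic cells, differed by 0.19 (interval -0.45 to 0.82), and Mmp13, the collagenase of late hypertrophic cells, by 0.36 (-0.34 to 1.06). Col10a1 differed by 0.95, with a wide interval of -0.42 to 2.32. Its hypertrophic signal was 7833, 6765 and 8106 with vehicle and 6410, 7245 and 7417 with CNP, and its mineralized signal was 354, 704 and 642 against 1190, 1030 and 793. The mineralized groups of Col10a1 did not overlap. Sox9, the chondrocyte transcription factor, differed by -0.25 (-0.94 to 0.44) and Mapk14, which encodes p38 alpha MAP kinase, by 0.064 (-0.30 to 0.43). Spp1 and Nppc, the gene of CNP, were not analysed here.

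Only Npr3 of the genes in 27 lists passed, so the other lists are described by their medians. Over 13247 genes the median difference was 0.014, 6889 were positive, and 8.11% had an unadjusted p under 0.05, with 7 called higher and 4 lower. Of 15 tested genes of mineralization and osteoblasts, 15 had positive differences, with a median of 0.50 and 5 at an unadjusted p under 0.05. The median response was -0.57 in the hypertrophic and 0.017 in the mineralized zone. Tnfsf11, the gene of RANKL, which drives osteoclast formation, had the largest difference, 1.58 ± 0.35 (limma adjusted p = 0.154). Its hypertrophic signal went from 2102, 1565 and 1776 to 408, 548 and 679, and its mineralized signal was 1339, 1483 and 1381 against 1230, 1301 and 1259. Tnfsf11 and Cthrc1 were called lower in the hypertrophic zone, and Ibsp differed by 0.11 (interval -0.40 to 0.62).

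Genes of osteoclasts had a median difference of 0.46, with 11 of 14 positive and 6 at an unadjusted p under 0.05. Mmp9, a gelatinase of osteoclasts, differed by 1.20 ± 0.30 and Itgb3, their vitronectin receptor subunit, by 1.23 ± 0.31 (limma adjusted p = 0.21 for each). The hypertrophic signal of Mmp9 was 2481, 2036 and 2067 with vehicle and 1039, 691 and 1235 with CNP, and the mineralized signal was 7367, 8460 and 8038 against 8020, 7833 and 8429. Summed over the list, signals were 9962 to 11294 in vehicle and 5094 to 7899 in CNP hypertrophic pieces. In the mineralized zone they overlapped, at 34524 to 39573 and 37428 to 40009.

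Markers of the perichondrium, tendon and fibroblasts showed a similar pattern, with 15 of 16 differences positive, a median of 0.38 and 7 at an unadjusted p under 0.05. Tnc, the matrix glycoprotein tenascin C, differed by 1.01 and the surface protein Thy1 by 1.00. Their summed signal was 32662 to 37436 in vehicle and 20631 to 27911 in CNP hypertrophic pieces, and 40830 to 54400 against 42136 to 54714 in mineralized pieces. For mineralization genes it was 45336 to 53139 and 35235 to 43333 in hypertrophic pieces. The sums of these 3 lists were thus lower with CNP in the hypertrophic zone beside Aspn, Tmem119 and the other genes that fell there, and their part in the response differences was not tested. Matrix proteases and their inhibitors had a median difference of 0.38, with 13 of 16 positive.

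Lists with negative medians were fewer. All 5 tested Schwann cell genes had negative differences, with a median of -0.58, led by Mbp, myelin basic protein, at -1.56 ± 0.36 (limma adjusted p = 0.166). Their summed signal was 8420 to 10061 in vehicle and 11651 to 13078 in CNP hypertrophic pieces. This higher sum stood beside the rises of Npr3, Scube3 and Gng4, and its part in them was not tested. Pmp22 of this list alone had mean signals of 4990 with vehicle and 6334 with CNP in hypertrophic pieces. With vehicle the median sum of the list was 9801 in resting/proliferating and 3048 in mineralized pieces. Whether the sum marks Schwann cells was not tested. Cartilage matrix genes and SOX factors had a median of -0.25, with 5 of 22 positive, and here the larger median response was the mineralized one, at -0.35 against -0.070. Matn1, the cartilage protein matrilin 1, had a response of -1.19 in the mineralized and -0.16 in the hypertrophic zone. Of the 6 cartilage genes at an unadjusted p under 0.05 in limma, 4 had negative and 2 positive differences. The positive ones were Chad (1.36) and Epyc (0.82), and none of the 6 was called. Medians were -0.14 for 7 skeletal muscle genes, -0.13 for 14 genes of ER stress and -0.084 for 14 of hypoxia and glycolysis.

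**Figure D4:**
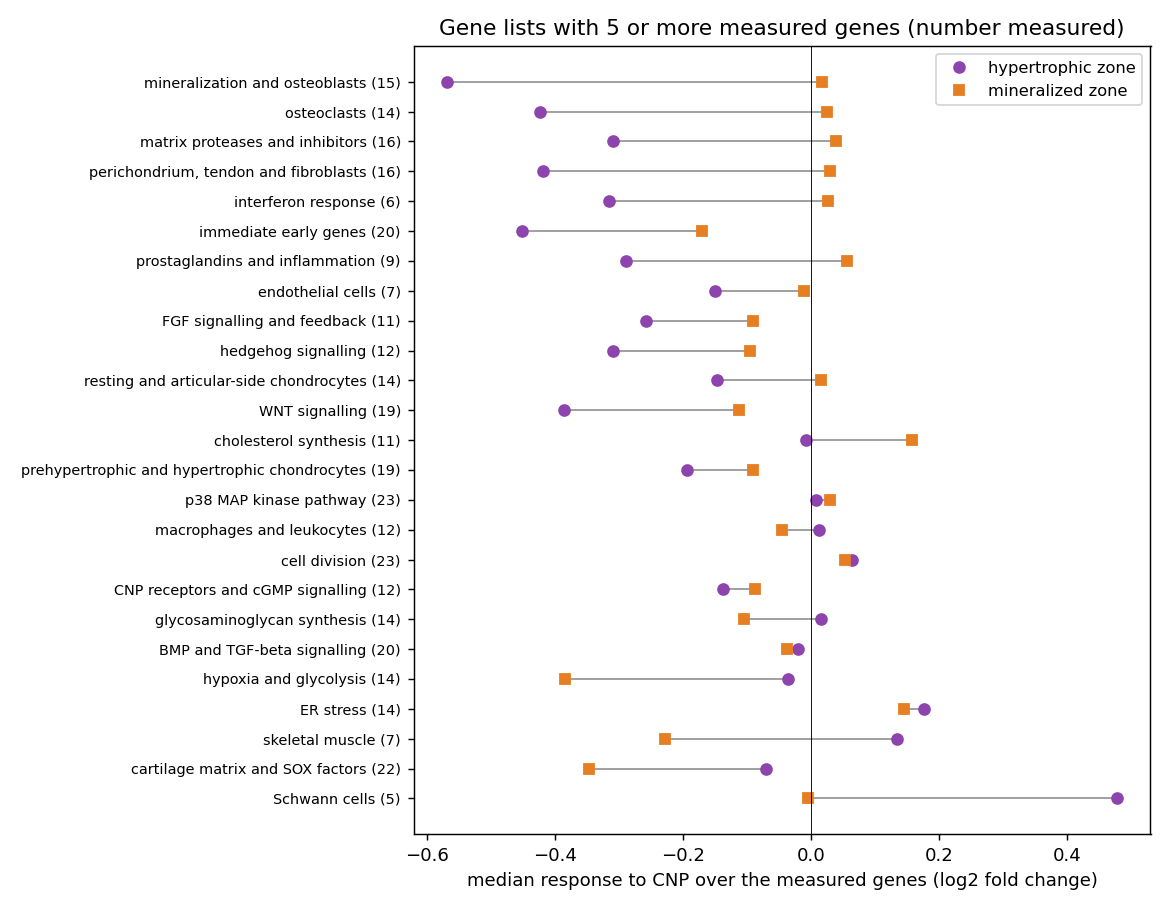
Median log2 response to CNP over the tested members of each gene list with 5 or more tested genes, in the hypertrophic (circles) and the mineralized zone (squares), ordered by the median response difference. The hypertrophic median is the lower for mineralization, osteoclast, protease and perichondrium genes, and the higher for Schwann cell genes.

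Signalling lists lay between these. Immediate early genes had a median difference of 0.31 with 14 of 20 positive, and Egr2, a transcription factor, had responses of -1.41 and -0.46. The median was 0.21 for 11 genes of FGF signalling and feedback, where Dusp6, an ERK phosphatase, differed by 1.32. It was 0.21 for 12 hedgehog genes, where Ptch1, the hedgehog receptor, differed by 0.59, and 0.19 for 19 WNT genes, where Sostdc1, a secreted inhibitor, differed by 2.11. The 20 genes of BMP and TGF-beta signalling had a median of -0.077, and Bmp6, listed with hypertrophic genes, differed by -1.10 ± 0.22 (limma adjusted p = 0.116). For 9 genes of prostaglandins and inflammation the median was 0.28, and Ptgs2, the inducible cyclooxygenase, went against it with -1.40. None of the named response differences in this group of lists passed, although Egr2, Dusp6, Ptch1, Sostdc1, Bmp6 and Ptgs2 were each called in the hypertrophic zone.

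The remaining lists had medians of 0.34 for 6 interferon response genes, 0.28 for 4 adipocyte genes, 0.22 for 7 endothelial genes and 0.20 for 14 genes of resting and articular-side chondrocytes. Medians were 0.13 for 11 genes of cholesterol synthesis, 0.085 for 19 prehypertrophic and hypertrophic genes and 0.081 for 23 genes of the p38 MAP kinase pathway, named in the title of the study. Smaller ones were 0.045 for 12 macrophage and leukocyte genes, -0.0025 for 23 cell division genes and -0.030 for 14 genes of glycosaminoglycan synthesis. Of the erythroid list 1 gene was tested, Hba-a1, which differed by 0.32.

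**Figure D5:**
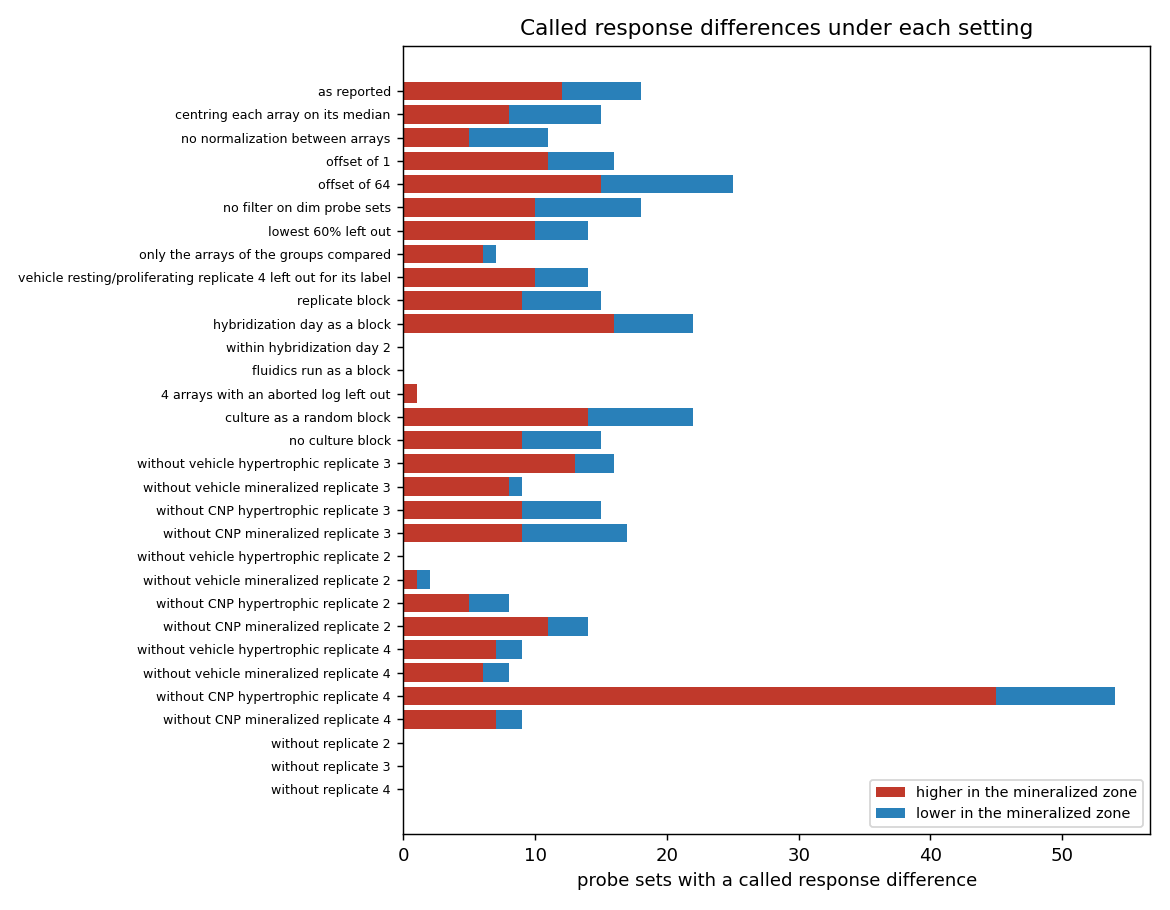
Number of probe sets whose response difference passed the test under each setting, split into higher and lower in the mineralized zone. The count was 18 as reported, lay between 0 and 54 over 29 distinct other settings, and was 0 in 5 of them (day 2 alone and leaving out culture number 3 are the same fit, drawn for each name).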

How the data were processed

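RNA of pooled tissue pieces was measured on 18 one-colour Affymetrix MOE430_2 arrays, and groups were taken from the titles. The deposited table gives each probe set a linear intensity. Which software summarized the probes is not given in the sources used. Results were analysed with GeneSpring 7.2 per the series design. The deposited signal was not on 1 level between arrays, so it was quantile-normalized over the 18 arrays and tested as log2(signal + 16). Fold changes are on that scale and understate changes of dim genes. From 45101 probe sets 64 controls were left out, then those with a mean in the lowest 40% (a signal under 63.5), which left 27022. Detection calls were not used here.

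Tests were run with limma 3.58.1 under R 4.3.3 (lmFit, eBayes with trend, two-sided, Benjamini-Hochberg over 27022 probe sets, call at an adjusted p under 0.05). The response difference was fitted on 18 arrays with the culture as a fixed block (8 residual degrees of freedom), and the response in each zone on the 6 groups without a block (12 degrees of freedom). The resting/proliferating arrays add only to the estimate of the spread. The array titled vehicle resting/proliferating, culture 4, carries a treatment field that reads CNP, and its title was used. The number of arrays limits the precision. The arrays' log files, which hold text and no signal, gave the hybridization day and fluidics run. Scripts were tested on simulated data.

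Of 45037 probe sets, 34945 had 1 symbol in the platform annotation, 932 several and 9160 none. A gene is its brightest tested probe set that names it alone. Named genes were up to 12 called genes with the largest difference in each direction and the same sign in all 3 pairs, genes with a called difference whose responses were called in both zones with opposite signs or in the mineralized zone alone (there were none), up to 4 called or otherwise up to 2 leading members of each of 27 lists, and 12 genes always named. The lists, rules and motifs were chosen with earlier results of these data known. Promoters are RefSeq's (GRCm38.p6).

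Alternatives were other normalizations, offsets, filters, blocks and array subsets.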

Additional observations from a re-analysis of the deposited data

Results flagged for a closer look

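The response to CNP differed between the zones, by the test of the difference itself, for 11 genes. The log2 response was higher in the mineralized zone for Lmo2 (2.92), Septin4 (2.30), Aspn (1.41), Angptl4 (1.38), Rtp4 (1.37), Tmem119 (1.20) and Marcks (1.08). It was lower there for Npr3 (-2.26), Gng4 (-2.04), Scube3 (-1.94) and Chrdl1 (-1.18). Over 29 distinct other settings Septin4 was called in 23, Lmo2 in 22, Marcks in 20 and Npr3 in 19. Tmem119 was called in 15, Scube3 in 12, Gng4 in 11, Aspn and Angptl4 in 8 each, Chrdl1 in 7 and Rtp4 in 6. No difference of these 11 changed sign in any of them. The selection favours this, since the zone differences of their CNP and vehicle cultures did not overlap.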

How the results depend on the processing

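Against 18 called response differences, 438 called changes in the hypertrophic and 1 in the mineralized zone, the unscaled signal gave 11, 94 and 0. Without scaling, the median response of all probe sets was -0.35 in the hypertrophic and -0.37 in the mineralized zone, and that of the difference -0.0086. Using only the arrays of the groups compared gave 7, 170 and 0. Fluidics run as a block gave 0 differences (1867 at an unadjusted p under 0.05 in limma) and 184 in the hypertrophic zone. Day 2 alone, the same fit as leaving out number 3, gave 0 (1804), 131 and 2, and day 1 holds 1 culture per treatment and allows no test. Leaving out 4 arrays with an aborted log, among them the vehicle hypertrophic and mineralized arrays of number 2, gave 1, 177 and 0. Hybridization day as a block gave 665 in the hypertrophic zone. The mineralized count was 0 with median centring or without the mislabelled array and 4 without a filter. The counts of 0 in that zone came with 546 to 1383 probe sets at an unadjusted p under 0.05. Leaving out single arrays or numbers gave 0 to 54 differences, 78 to 610 hypertrophic and 0 to 4 mineralized calls. Deviations of same-numbered cultures (2, 3 and 4) correlated at 0.026, 0.00090 and 0.076 for the difference, -0.018, 0.091 and 0.12 in the hypertrophic and 0.14, 0.12 and 0.062 in the mineralized zone. In no case were all over 0.1, so the number was not taken to pair cultures. It is tied to the hybridization day. With the replicate block the counts were 15, 674 and 2. Without 1 culture number the actin difference ran from -0.51 to -0.00043, a choice added after seeing the data. No direction of a called result reversed, which the selection of called results favours. The cause of each change was not tested.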

Other observations

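Other genes with large hypertrophic responses, chosen after their values were seen, had smaller mineralized values without a called difference. Slit3, a secreted guidance protein, had responses of -1.67 and 0.050, and its difference of 1.72 ± 0.36 had a limma adjusted p of 0.126. Met, the receptor of hepatocyte growth factor, had responses of 1.58 and 0.079, and Il15, a cytokine, -1.57 and -0.33. Fewer probe sets had an unadjusted p under 0.05 in the mineralized zone (907) than the 1351 given by chance.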
